A study of Homo sapiens with 9 samples.

Results

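AP-1 is a family of basic leucine zipper (bZIP) transcription factors that bind DNA as dimers, and 10 of its genes are described here: FOS, FOSB, FOSL1, FOSL2, JUN, JUNB, JUND, ATF3, BATF3 and MAFF. They were taken by gene symbol from a table of 60603 genes, in which each symbol was found in 1 row. The table holds bulk RNA-seq of TC32, a long-used line of Ewing sarcoma cells with the EWS::FLI1 fusion, in 3 groups of 3 biological replicates, all at 30 h, labelled wild type and placed by their labels in a single batch. The siEF cells received an siRNA over the breakpoint of the fusion, the siNEG cells a nonspecific siRNA and the Media cells no siRNA according to their label. The comparison of siEF with siNEG asks which genes depend on the fusion, siNEG against Media shows what came with transfection of the nonspecific siRNA, and siEF against Media repeats the first with the untransfected control. All 9 libraries come from 1 cell line, so the spread is that between cultures of that line.

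FOS and JUN proteins pair through a leucine zipper and bind the palindrome-like site TGAGTCA, where they raise or lower transcription of genes for growth, migration and matrix turnover. FOS proteins bind DNA only as partners of another bZIP protein, most often a JUN, whereas JUN proteins can also pair with themselves. Many of these genes are immediate early genes, whose RNA appears within minutes of a growth factor or a stress and is short-lived. AP-1 sites are often found beside the GGAA sites bound by EWS::FLI1. RNA levels were measured here, not the proteins or their binding.

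Total expected counts were between 20727706 and 33134581 per library, and siEF replicate 2 was the smallest. All 7 Ewing sarcoma markers examined were detected in every library, from CCND1 at 1868 ± 79.8 CPM (SD, n = 3) to XG at 19.0 ± 1.68 CPM (SD, n = 3) in siNEG. They were not steady between groups. From siNEG to siEF, CCND1, NR0B1, STEAP1, NKX2-2 and PRKCB fell, CD99 rose and XG did not pass (edgeR's quasi-likelihood test). CD99 did not pass against Media. In siEF, CCND1 was at 95.4 ± 6.73 CPM and STEAP1, the lowest, at 8.62 ± 1.16 CPM (SD, n = 3). Of the 11 markers of blood, endothelium, skeletal muscle and epithelium, CD3E, MYOD1 and MYOG were at 0 counts in all 9 libraries, and none passed 5.03 CPM. Of the 6 of these markers that were tested, DES, EPCAM and CDH1 rose and PECAM1 fell from siNEG to siEF (edgeR's quasi-likelihood test), of which EPCAM did not pass against Media (0.406 CPM in siEF and 0.399 CPM in Media). CDH5 rose from Media to siEF by 2.69 on the log2 scale (adjusted P = 0.0028, same test) and did not pass against siNEG. The 11 levels summed to 7.08 to 7.49 CPM in siEF, 4.17 to 5.87 CPM in siNEG and 5.52 to 6.36 CPM in Media, and their part in the results was not tested. FLI1, the 3′ partner of the fusion, had 35.5 to 39.3 CPM in siEF and 48.0 to 48.6 CPM in siNEG, and NR0B1, a target that the fusion induces, 15.6 to 20.2 CPM against 133.4 to 142.7 CPM. In Media, FLI1 had 56.2 to 59.5 CPM and NR0B1 162.5 to 187.2 CPM. Both also fell from Media to siNEG (adjusted P = 0.00347 and 0.00105, edgeR's quasi-likelihood test). The 10 most abundant genes took between 12.29% and 12.87% of the counts in siEF and at most 6.62% elsewhere, so scaling bears on every fold change.

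The start regions of 4 genes are shown first: FOS, which fell with silencing, FOSL2 and MAFF, which had the 2 largest rises, and JUN, the usual partner of FOS. RefSeq start regions (GRCh38.p14, 250 bases before to 50 after the start) were found for 8 of the 10 genes, and FOSL1 and BATF3 were not matched. The sequences below are written 5′ to 3′ on the strand of the gene, and capitals mark matches to the motifs searched. FOS is at chr14:75278578-75278877 (plus strand), FOSL2 at chr2:28392608-28392907 (plus), JUN at chr1:58783998-58784297 (minus) and MAFF at chr22:38201744-38202043 (plus). A second start region listed for MAFF, at chr22:38202770-38203069 (plus), is not shown and held no match to the motifs.
FOS: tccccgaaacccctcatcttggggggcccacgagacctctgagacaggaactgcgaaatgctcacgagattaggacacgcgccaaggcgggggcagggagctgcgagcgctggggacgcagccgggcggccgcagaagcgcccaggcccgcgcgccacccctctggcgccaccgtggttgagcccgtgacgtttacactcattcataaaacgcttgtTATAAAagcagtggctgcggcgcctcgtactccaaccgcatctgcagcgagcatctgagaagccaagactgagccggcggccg
FOSL2: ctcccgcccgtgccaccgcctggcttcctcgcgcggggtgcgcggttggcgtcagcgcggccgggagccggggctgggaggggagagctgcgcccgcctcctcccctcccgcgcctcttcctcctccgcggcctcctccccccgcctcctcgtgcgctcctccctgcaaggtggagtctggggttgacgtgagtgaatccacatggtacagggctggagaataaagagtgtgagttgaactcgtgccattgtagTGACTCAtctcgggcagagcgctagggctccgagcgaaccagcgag
JUN: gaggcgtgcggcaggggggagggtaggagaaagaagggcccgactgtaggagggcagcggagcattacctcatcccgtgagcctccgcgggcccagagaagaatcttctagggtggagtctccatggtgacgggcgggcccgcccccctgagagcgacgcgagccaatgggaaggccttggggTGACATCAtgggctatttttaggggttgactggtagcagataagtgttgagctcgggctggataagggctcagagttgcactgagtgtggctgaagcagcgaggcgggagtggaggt
MAFF: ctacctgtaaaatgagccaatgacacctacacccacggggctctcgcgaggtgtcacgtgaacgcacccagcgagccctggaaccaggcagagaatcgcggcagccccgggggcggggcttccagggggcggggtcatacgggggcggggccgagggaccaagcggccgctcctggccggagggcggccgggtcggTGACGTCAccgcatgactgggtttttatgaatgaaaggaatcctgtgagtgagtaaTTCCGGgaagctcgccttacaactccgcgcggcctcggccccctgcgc

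The AP-1 site TGAGTCA, read on both strands, was found in FOSL2 alone among the 8 genes, starting at base 5 after the start, and 4.95% of 35116 RefSeq start regions of this length held it. TGACATCA, the variant known from the JUN promoter, was found in JUN, starting 67 bases before the start, and in ATF3, and in 2.61% of all start regions. TGACGTCA, the site of CREB and ATF factors, was found in MAFF, starting 54 bases before the start, and in JUND, and in 1.85% of all. The TATA motif TATAAA was found in FOS, FOSB and JUNB, starting 33, 30 and 31 bases before the start, in the second of the 2 start regions listed for ATF3, and in 11.5% of all. CCGGAA, an ETS-type site, was found in FOSB and MAFF and in 17.2% of all. The tandem GGAAGGAA (3.67% of all) and the CArG box of serum response factor (1.29% of all) had no match in these windows. FOS and JUNB both held the TATA motif and had no exact match to the 3 AP-1 and CREB type motifs. Sites with other bases were not searched, such as TGACGTTT in the FOS sequence above, which begins like TGACGTCA.

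When the fusion was silenced, the AP-1 genes did not move as a block. FOSL2, JUN, JUNB, JUND, ATF3 and MAFF rose and FOS and BATF3 fell between siNEG and siEF (edgeR's quasi-likelihood test with an adjusted P below 0.01), so 6 of the 10 genes rose and 2 fell. Of all 16093 genes tested, 33.6% rose and 31.7% fell by the same rule. With a log2 fold change beyond 1 in addition, 5 genes were called higher (FOSL2, JUN, JUNB, ATF3, MAFF) and 2 lower (FOS, BATF3), against 17.1% and 11.7% of all genes. The median log2 fold change of the 10 genes was 1.09, and that of all genes tested was 0.05. Levels are in CPM, the count relative to the library size scaled by TMM, and intervals are 95% intervals of the log2 fold change. In bulk RNA, fewer cells with a transcript and less of it per cell cannot be told apart.

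**Figure D1:**
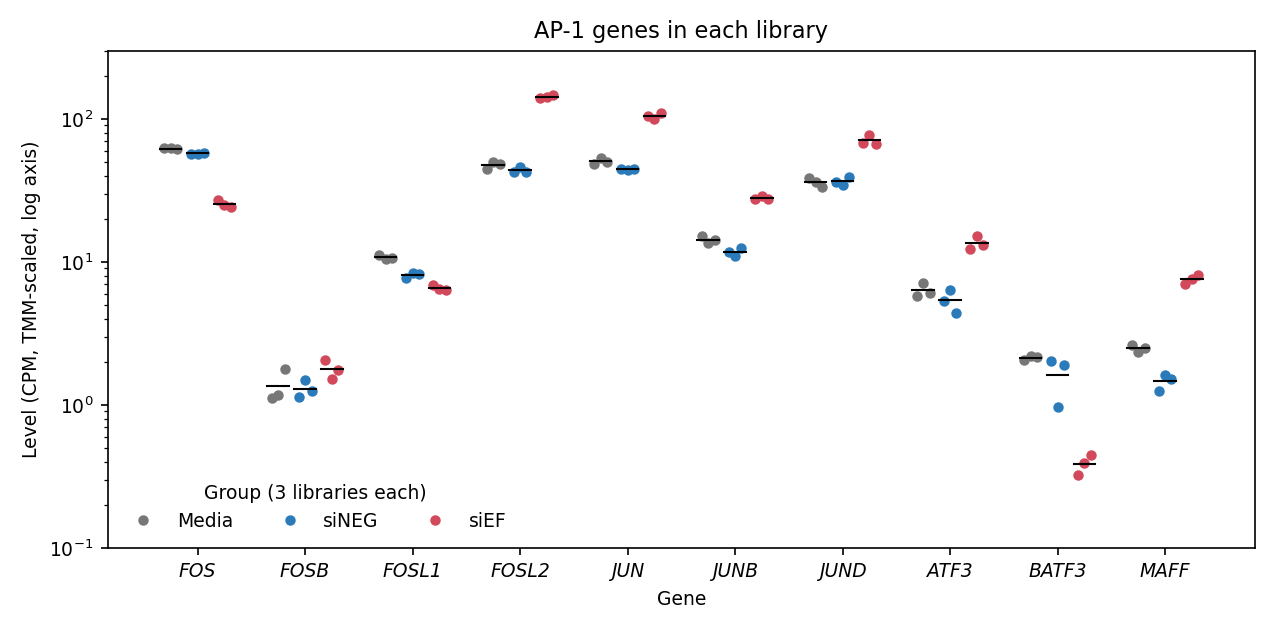
Level of each of the 10 AP-1 genes in CPM (log axis) in each of 3 Media, 3 siNEG and 3 siEF libraries, with a line at the group mean. FOSL2, JUN, JUNB, JUND, ATF3, MAFF and, by a small margin, FOSB lie higher in every siEF library than in any siNEG library. FOS, FOSL1 and BATF3 lie lower in the same way. Of all genes tested, 39.8% lay wholly higher and 37.1% wholly lower in siEF than in siNEG. The 3 siNEG libraries of BATF3 are spread from 0.973 to 2.02 CPM.

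FOS (ENSG00000170345.10, chromosome 14, 75278826 to 75282230 in GRCh38) encodes the founding FOS protein and was the most abundant AP-1 gene per length in both control groups. It was at 27.2, 25.0 and 24.2 CPM in siEF replicates 1, 2 and 3, at 57.2, 57.2 and 58.2 CPM in siNEG and at 62.2, 62.4 and 61.7 CPM in Media. Every siEF library lay below every control library, and the libraries of each group lay close together. FOS fell by 1.17 on the log2 scale against siNEG (SE 0.06, adjusted P = 1.41e-11, edgeR's quasi-likelihood test), to 44.3% of its level in siNEG.

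FOSL2 (ENSG00000075426.12, chromosome 2, 28392448 to 28417317), which encodes FRA-2, a FOS protein without the strong activation domain of FOS, moved the other way. Its siEF libraries were at 140.7, 141.8 and 148.2 CPM, against 42.7, 46.1 and 42.3 CPM in siNEG and 44.8, 50 and 48.4 CPM in Media. The groups were far apart, and the 2 control groups overlapped. The log2 fold change against siNEG was 1.72 (SE 0.06, adjusted P = 8.41e-14, edgeR's quasi-likelihood test), or 3.28-fold. Its intervals of 1.60 to 1.83, and of -1.3 to -1.05 for FOS, lie on opposite sides of 0.

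FOSL1 and FOSB completed the FOS family with smaller differences. FOSL1 (chromosome 11, 65892049 to 65900573), which encodes FRA-1, was at 6.94, 6.46 and 6.34 CPM in siEF, at 7.77, 8.31 and 8.21 CPM in siNEG and at 11.2, 10.4 and 10.7 CPM in Media. The 3 groups did not overlap, with siEF lowest and Media highest. FOSL1 differed by -0.30 on the log2 scale between siEF and siNEG (interval -0.51 to -0.09, adjusted P = 0.0115, edgeR's quasi-likelihood test), just short of the threshold, which it passed with RLE scaling (adjusted P = 0.00961), without siNEG replicate 1 (adjusted P = 0.00742), without Media replicate 1 (adjusted P = 0.00994) and with both controls pooled (adjusted P = 0.00364). FOSB (chromosome 19, 45467995 to 45475179), best known for a stable splice form in neurons, had only 31 to 57 counts in any library. It was at 2.06, 1.52 and 1.75 CPM in siEF, at 1.14, 1.5 and 1.25 CPM in siNEG and at 1.11, 1.17 and 1.78 CPM in Media. Its siEF libraries lay just above siNEG and overlapped Media. The log2 fold change against siNEG was 0.46 with an interval of -0.11 to 1.02, so a rise by the fold change cut-off was within the range these counts allow. All 7185 bases of FOSB lie within ERCC1 on the opposite strand, with 0 exonic bases shared. ERCC1 had 1402 to 2342 counts per library, and its part in the FOSB counts was not tested.

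The makeup of the FOS family therefore differed between the groups, as read from levels per kb of the canonical transcript. FOS made up 33.6%, 31.9% and 30.5% of the family sum in the siEF libraries and between 69.1% and 70.8% in siNEG. FOSL2 made up 54.4%, 56.8% and 58.4% in siEF and between 16.1% and 17.5% in siNEG. FOSL1 had 10.2% ± 0.359 (SD, n = 3) in siEF and 12.2% ± 0.286 (SD, n = 3) in siNEG, and FOSB had 1.08% to 1.42% in siEF and 0.784% to 1.01% in siNEG, an order that turned without scaling by length (means of 1.00% and 1.17%). The sum of the 4 genes was 37.8 ± 0.669 CPM per kb (SD, n = 3) in siEF and 39.0 ± 0.470 CPM per kb (SD, n = 3) in siNEG. Without scaling by length the sum was 177.4 ± 2.92 CPM in siEF and 110.6 ± 2.20 CPM in siNEG (SD, n = 3), because FOSL2 has a canonical transcript of 6713 bases and FOS one of 2104. These shares are descriptions without a test, and the transcripts in use were not known.

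**Figure D2:**
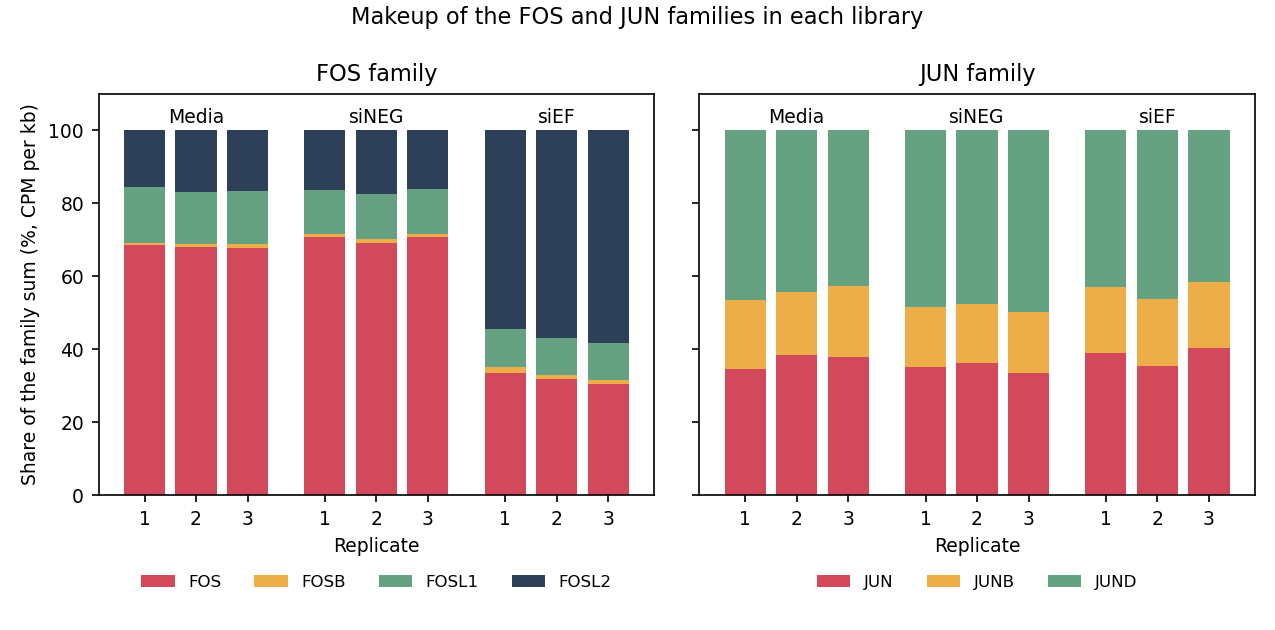
Share of each gene in the summed level of its family (CPM per kb of the canonical transcript, %), 1 bar per library. FOSL2 takes 54.4% to 58.4% of the FOS family in siEF against 16.1% to 17.5% in siNEG, whereas the shares of the JUN family lie close together in the 3 groups.

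The 3 JUN genes, whose proteins are the usual partners of FOS proteins, all rose. JUN (ENSG00000177606.6, chromosome 1, 58776845 to 58784048) was at 105.2, 99.8 and 110.2 CPM in siEF, at 44.9, 44.2 and 44.5 CPM in siNEG and at 48.7, 53.1 and 50 CPM in Media. Its log2 fold change against siNEG was 1.24 (SE 0.05, adjusted P = 3.63e-12, edgeR's quasi-likelihood test). JUN thus stood well apart from both controls.

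JUNB (ENSG00000171223.6, chromosome 19, 12791486 to 12793315), often a weaker activator than JUN, was at 27.4, 28.9 and 27.4 CPM in siEF, at 11.8, 11.0 and 12.5 CPM in siNEG and at 15.2, 13.5 and 14.3 CPM in Media. Its log2 fold change was also 1.24 (SE 0.08, adjusted P = 2.12e-10, same test), and its groups did not overlap. HOOK2 runs on the opposite strand of the same interval and shares 259 of the 1830 exonic bases of JUNB. HOOK2 had 236 to 354 counts per library and differed by 0.39 on the log2 scale (adjusted P = 0.00613, same test), and the strand setting of the counting is not given in the sources used here, so reads of the shared bases cannot be told apart.

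JUND (ENSG00000130522.5, chromosome 19, 18279694 to 18281622), the JUN gene with the most constant level in many cells, was at 68.4, 77.2 and 67.3 CPM in siEF, at 36.5, 34.5 and 39.0 CPM in siNEG and at 38.8, 36.2 and 33.5 CPM in Media. The siEF libraries were all above the controls, which overlapped each other. JUND rose with a log2 fold change of 0.95 (interval 0.80 to 1.10, adjusted P = 3.39e-09, edgeR's quasi-likelihood test), just inside the fold change cut-off of 1, which JUN and JUNB passed. With upper quartile scaling it was 1.04 and passed.

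The makeup of the JUN family varied less than that of the FOS family. JUN made up 38.3% ± 2.58 (SD, n = 3) of the family sum per kb in siEF and 35% ± 1.38 (SD, n = 3) in siNEG. JUNB had 18.1% ± 0.196 (SD, n = 3) and 16.4% ± 0.410 (SD, n = 3), and JUND 43.6% ± 2.39 (SD, n = 3) and 48.6% ± 0.994 (SD, n = 3). The siEF and siNEG libraries overlapped for JUN and not for JUNB or JUND. In Media, JUNB had 17.3% to 19.3% and JUND 42.8% to 46.4%, and both overlapped siEF. The sum of the 3 genes was 84.3 ± 1.94 CPM per kb (SD, n = 3) in siEF and 39.1 ± 1.65 CPM per kb (SD, n = 3) in siNEG.

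ATF3, BATF3 and MAFF encode smaller bZIP proteins without a classical activation domain of the FOS or JUN kind. ATF3 (ENSG00000162772.17, chromosome 1, 212565334 to 212620777), a stress-induced factor, was at 12.4, 15.1 and 13.1 CPM in siEF, at 5.37, 6.40 and 4.42 CPM in siNEG and at 5.75, 7.11 and 6.08 CPM in Media. The siEF libraries lay above all controls, and the controls overlapped. Its log2 fold change against siNEG was 1.32 (SE 0.13, adjusted P = 1.58e-07, edgeR's quasi-likelihood test).

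MAFF (ENSG00000185022.12, chromosome 22, 38200767 to 38216507), a small MAF protein that pairs with NRF2 and BACH factors, had the largest rise of the 10 genes. It was at 7.05, 7.54 and 8.05 CPM in siEF, at 1.26, 1.62 and 1.51 CPM in siNEG and at 2.61, 2.35 and 2.51 CPM in Media. The 3 groups did not overlap, and siNEG was lowest. The log2 fold change against siNEG was 2.36 (SE 0.16, adjusted P = 9.8e-10, same test), or 5.14-fold. PLA2G6 runs on the opposite strand, shares 326 of the 5611 exonic bases of MAFF and rose as well, by 1.36 on the log2 scale (adjusted P = 3.62e-08, same test), and its part in the MAFF counts was not tested.

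BATF3 (ENSG00000123685.9, chromosome 1, 212686417 to 212699840), known as a factor of dendritic cells and some lymphomas, had the largest fall. It had 9, 8 and 13 counts in siEF, 64, 33 and 59 in siNEG and 63, 69 and 62 in Media, which corresponds to 0.325, 0.392 and 0.446 CPM, to 2.02, 0.973 and 1.89 CPM and to 2.06, 2.19 and 2.17 CPM. The siEF libraries lay below all others, and siNEG replicate 2 lay apart from the other siNEG libraries. BATF3 fell by 2.05 on the log2 scale (SE 0.34, adjusted P = 4.23e-05, edgeR's quasi-likelihood test). Leaving out 1 library at a time gave values from -2.33 to -1.90. At these counts the interval was wide, from -2.78 to -1.33.

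**Figure D3:**
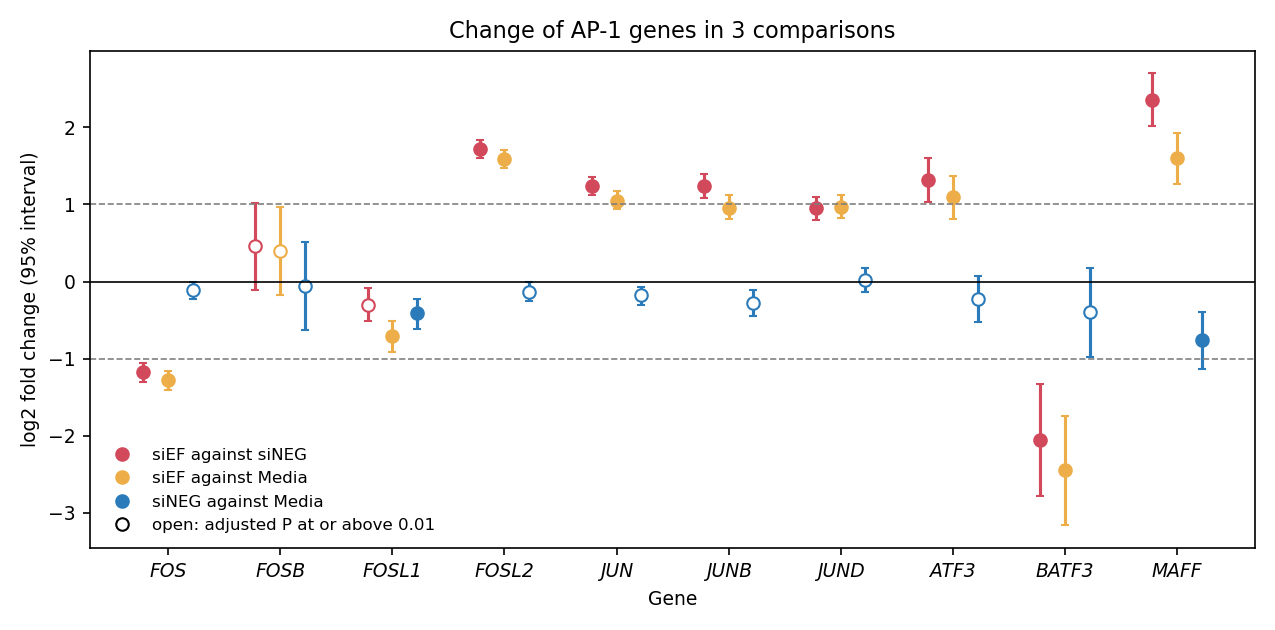
log2 fold change of each AP-1 gene with its 95% interval in the 3 comparisons, with open points for an adjusted P at or above 0.01 and dashed lines at -1 and 1. MAFF has the highest point (2.36) and BATF3 the lowest (-2.05) for siEF against siNEG, and all points of siNEG against Media lie between -0.76 and 0.02.

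The order of the 10 genes by level per kb changed with silencing. In siNEG, FOS was highest at 27.3 CPM per kb, followed by JUND at 19.0 and JUN at 13.7, and FOSL2 and JUNB at 6.51 and 6.44 CPM per kb overlapped. FOSL1, ATF3, BATF3, MAFF and FOSB followed between 4.76 and 0.344 CPM per kb, and the libraries of ATF3 and BATF3 overlapped. In Media the order was the same except that JUNB stood above FOSL2, and these 2 overlapped. In siEF, JUND led at 36.8 CPM per kb, then JUN at 32.3, FOSL2 at 21.4, JUNB at 15.3 and FOS at 12.1, with no overlap between neighbours. At the lower end, ATF3 was at 6.97, FOSL1 at 3.87 and MAFF at 3.18, and FOSB and BATF3 overlapped at 0.470 and 0.464 CPM per kb.

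ATF3 and BATF3 are neighbours on chromosome 1 and moved in opposite directions. Their starts are 134.5 kb apart, and no other tested gene started between them. The other tested genes with a GENCODE name that started within 250 kb of ATF3 were PACC1, NENF, NSL1 and TATDN3. Their log2 fold changes were -0.59, 0.01, -0.51 and -0.59. PACC1, NSL1 and TATDN3 thus fell, NENF did not pass, and none of them was called. At FOS, JDP2, which encodes a bZIP protein that represses AP-1 sites, starts 148.9 kb downstream. On the other side of FOS, ACYP1 (-1.72 on the log2 scale) and NEK9 (-1.38) were called lower like FOS, TMED10 (-0.53) fell, and MLH3 (0.46) and ZC2HC1C (0.62) did not pass. JDP2 rose by 1.10 on the log2 scale (SE 0.12, adjusted P = 5.44e-07, edgeR's quasi-likelihood test), from 5.26 ± 0.542 CPM in siNEG to 11.3 ± 1.2 CPM in siEF (SD, n = 3), while FOS fell. This rested on siNEG as the control, since JDP2 was at 9.30 ± 1.17 CPM (SD, n = 3) in Media, fell by 0.82 on the log2 scale from Media to siNEG (adjusted P = 0.000224, same test) and had a log2 fold change of 0.28 in siEF against Media (adjusted P = 0.0415, same test). These 2 neighbourhoods were chosen after their values were seen.

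**Figure D4:**
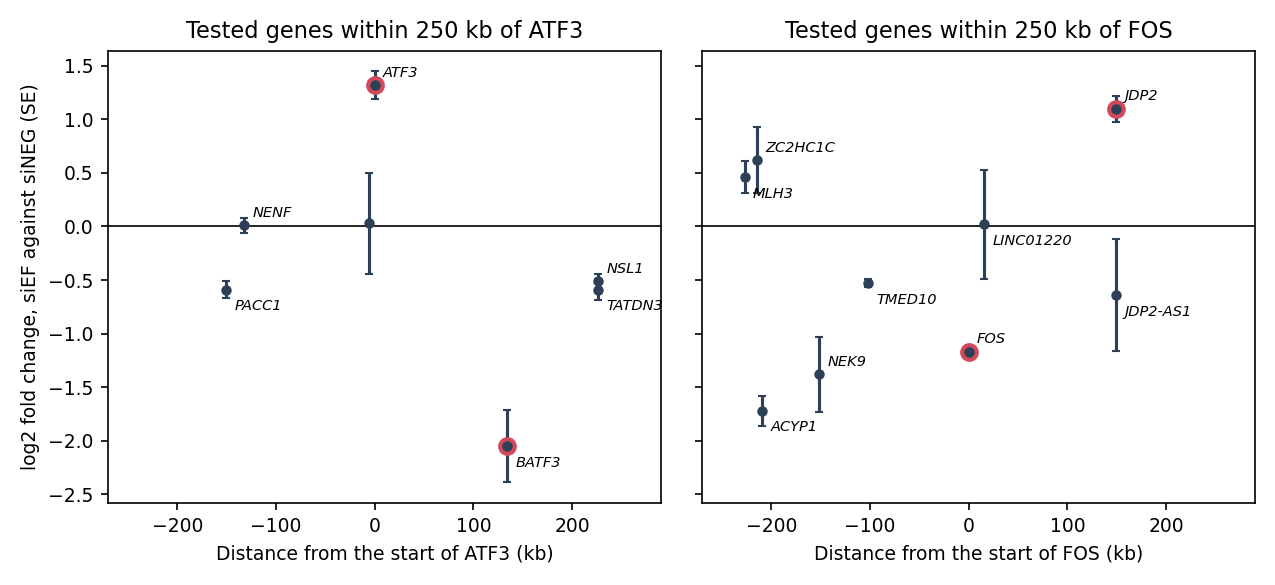
log2 fold change of siEF against siNEG (bars, SE) of each tested gene that starts within 250 kb of ATF3 (left) or FOS (right), by distance from that start in kb; AP-1 genes and JDP2 have large red markers. BATF3 (-2.05) lies 134.5 kb from ATF3 (1.32), and JDP2 (1.10) lies 148.9 kb from FOS (-1.17).

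Set against Media, the same siEF libraries gave 6 genes that rose and 3 that fell, against 33.6% and 32.3% of all genes. With the fold change cut-off, 4 were called higher and 2 lower, against 17.4% and 12.5% of all genes. The 2 comparisons share the siEF libraries, so their values are given side by side. The log2 fold changes against Media and siNEG were 1.59 and 1.72 for FOSL2, 1.05 and 1.24 for JUN, 0.96 and 1.24 for JUNB and 0.97 and 0.95 for JUND. They were 1.09 and 1.32 for ATF3, 1.60 and 2.36 for MAFF, -1.28 and -1.17 for FOS and -2.45 and -2.05 for BATF3. FOSL1 fell by 0.71 on the log2 scale against Media (adjusted P = 4.48e-06, edgeR's quasi-likelihood test), whereas FOSB at 0.40 (interval -0.17 to 0.97) did not pass. JUNB was called against siNEG and, at 0.96, not against Media. The count called higher against Media turned on genes near the cut-off: with upper quartile scaling JUNB (1.06) and JUND (1.07) passed and 6 were called (19.3% of all genes), and a test against the cut-off itself left 2, FOSL2 and MAFF (11.3% of all genes).

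The nonspecific siRNA alone came with small differences. FOSL1 and MAFF fell between Media and siNEG and no AP-1 gene rose (edgeR's quasi-likelihood test), against 5.96% and 3.83% of all genes that fell and rose. FOSL1 differed by -0.41 on the log2 scale (interval -0.61 to -0.22, adjusted P = 0.00508, edgeR's quasi-likelihood test) and MAFF one of -0.76 (interval -1.13 to -0.40, adjusted P = 0.00548, same test). Without any 1 of the 6 siNEG and Media libraries neither passed, with adjusted P values from 0.0113 to 0.0242 for FOSL1 and from 0.01 to 0.0238 for MAFF. At an unadjusted P under 0.05, 5 of the 10 genes were lower and 0 higher in siNEG, against 16.3% and 13.9% of all genes, and DESeq2 also called 0 that rose. All 3 siNEG libraries lay below all 3 Media libraries for 6 of the 10 genes (FOS, FOSL1, JUN, JUNB, BATF3, MAFF), an arrangement that 17.3% of all tested genes had. For the rest of the family the intervals were -0.25 to -0.01 for FOSL2, -0.14 to 0.17 for JUND, -0.52 to 0.07 for ATF3 and -0.63 to 0.51 for FOSB.

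The other bZIP factors can pair or compete with AP-1 proteins. Of 24 genes in the list 22 were tested, and 11 rose and 5 fell in siEF against siNEG, with a median log2 fold change of 0.39, where 33.6% of all genes rose and 31.7% fell and their median was 0.05. MAF, a large MAF factor, rose from 1.01 ± 0.213 to 9.63 ± 0.537 CPM (SD, n = 3), a log2 fold change of 3.26. BACH2 and BACH1, repressors that pair with small MAF proteins, rose by log2 fold changes of 2.95 and 1.61, the latter from 41.0 ± 4.07 to 125.2 ± 4.47 CPM (SD, n = 3). The other small MAF genes did not follow MAFF: MAFG had a log2 fold change of -0.88 (adjusted P = 1.54e-09, edgeR's quasi-likelihood test) and MAFK one of -0.40 (adjusted P = 0.00189, same test). CEBPD rose by 2.34 and CEBPB fell by 1.39 on the log2 scale, the latter from 90.2 ± 2.48 to 34.4 ± 2.65 CPM (SD, n = 3). BATF had 0 counts in all 9 libraries and was not tested. MAF and BACH2 also rose from Media to siNEG, by 1.22 (adjusted P = 0.00561, same test) and 0.66 on the log2 scale (adjusted P = 0.000962, same test). Their folds in siEF were therefore 22.3 and 12.2 against Media, and 9.56 and 7.70 against siNEG. MAFK did not pass without siNEG replicate 2 (adjusted P = 0.0127, same test). MAFG, MAFK and BATF were named after their values were seen.

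**Figure D5:**
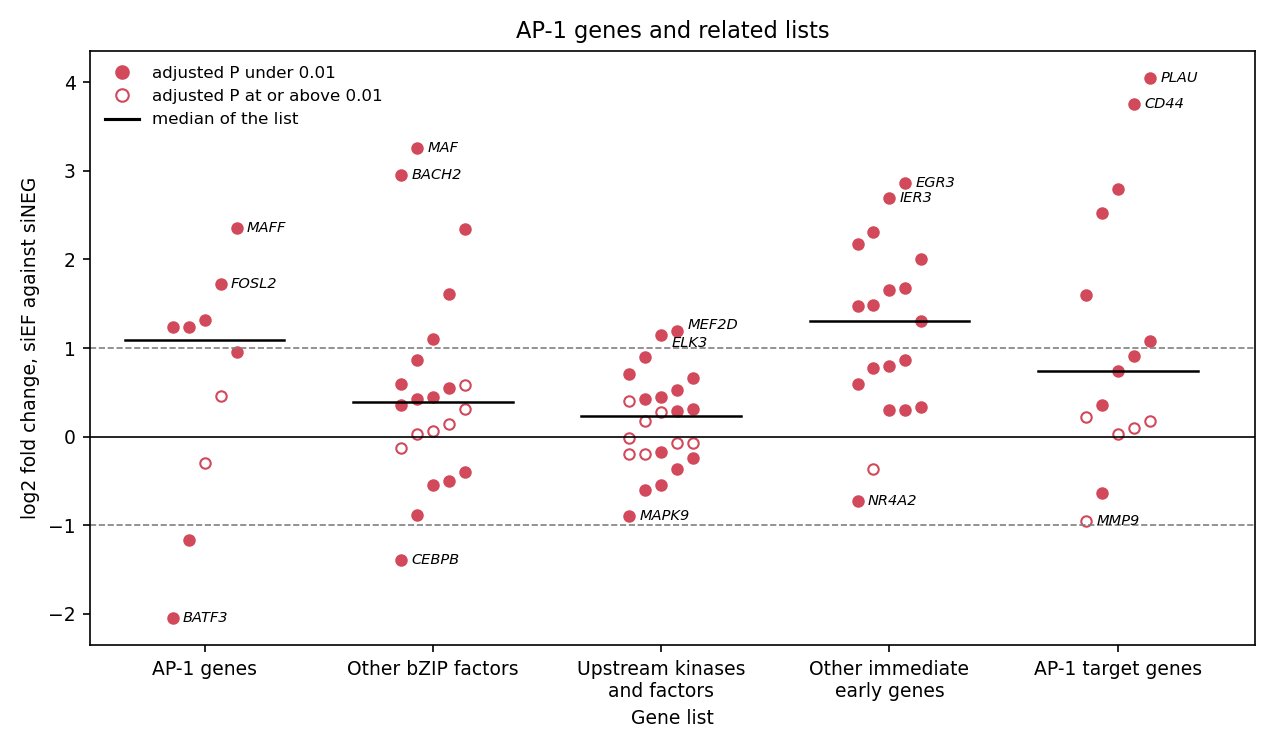
log2 fold change of siEF against siNEG for the tested genes of the AP-1 family and of 4 related lists, with a line at each median, open points for an adjusted P at or above 0.01 and the 2 highest genes and the lowest gene of each list named. The medians are 1.09, 0.39, 0.23, 1.3 and 0.74 from left to right.

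Of the kinases and factors upstream of AP-1, all 24 were tested, 10 rose and 6 fell, and the median log2 fold change was 0.23, beside 33.6%, 31.7% and 0.05 for all genes. Only MEF2D (1.19) and ELK3 (1.15) were called higher and 0 were called lower, against 17.1% and 11.7% of all genes. ELK3 encodes a partner of serum response factor, and MEF2D a factor that binds the JUN promoter. SRF itself was at 56.1 ± 1.94 CPM in siEF and 58.9 ± 1.76 CPM in siNEG (SD, n = 3), a difference of -0.07 on the log2 scale (SE 0.05, adjusted P = 0.248, same test). MAPK8, which encodes JNK1, a kinase of JUN, rose by 0.53 on the log2 scale, and MAPK9, which encodes JNK2, fell by 0.90. SRF, MAPK8 and MAPK9 were named after their values were seen.

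Most other immediate early genes rose. Of 20 genes 19 were tested, 17 rose and 1 fell, and 10 were called higher, with a median log2 fold change of 1.3. Of all genes, 33.6% rose, 31.7% fell and 17.1% were called higher. EGR3, EGR2, KLF2 and KLF4 encode zinc finger factors and rose by log2 fold changes of 2.86, 2, 2.17 and 2.31. IER3, a survival gene, rose from 15.1 ± 1.14 to 97.2 ± 4.39 CPM (SD, n = 3), or 2.69 on the log2 scale (SE 0.07, adjusted P = 6.12e-15, edgeR's quasi-likelihood test). NR4A2 was the 1 that fell, with a log2 fold change of -0.73, and it was named after its value was seen. It did not pass without siEF replicate 1 (adjusted P = 0.0117, same test). Against Media, NR4A2 did not pass either, at -0.51 on the log2 scale (adjusted P = 0.0184, same test). From Media to siNEG, EGR3 rose by a log2 fold change of 1.89 (adjusted P = 0.000798, same test) and KLF2 fell by 0.99 on the log2 scale (adjusted P = 0.000128, same test). The folds of EGR3 and KLF2 in siEF were therefore 26.9 and 2.26 against Media, and 7.27 and 4.49 against siNEG.

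Genes known as AP-1 targets in other cells were measured as well. Of 20 genes 15 were tested, 9 rose and 1 fell, and 6 were called higher, with a median log2 fold change of 0.74, again beside 33.6%, 31.7% and 17.1% of all genes. PLAU, the urokinase gene, rose from 5.71 ± 0.714 to 94.9 ± 4.55 CPM (SD, n = 3), a log2 fold change of 4.05. PLAU also rose from Media to siNEG, by 0.92 on the log2 scale (adjusted P = 9.9e-05, edgeR's quasi-likelihood test), so its fold in siEF was 31.3 against Media and 16.6 against siNEG. CD44, a hyaluronan receptor, rose by 3.75, MMP10, a matrix protease, by 2.52 and CXCL8, a chemokine, by 1.60 on the log2 scale. PLAUR, the urokinase receptor, fell by 0.64 on the log2 scale, and it was named after its value was seen. The study names 3 genes for paired GGAA and AP-1 sites, where it reported less binding of the fusion after the drug mithramycin at low concentration. RNA after silencing is another treatment and another measure. The RNA of these 3 genes did not pass: UPP1 differed by 0.03 (SE 0.08), HBEGF by 0.10 (SE 0.20) and MMP9 by -0.95 on the log2 scale (SE 0.37, adjusted P = 0.031, edgeR's quasi-likelihood test). Without siNEG replicate 1, the lowest of the 3 siNEG libraries for MMP9, it was -1.22 and was called lower (adjusted P = 0.0094, same test). Against Media, MMP9 differed by -0.41 on the log2 scale (interval -1.24 to 0.41, adjusted P = 0.349, same test). Its level was low, at 0.642 ± 0.178 CPM in siEF, 1.22 ± 0.381 CPM in siNEG and 0.844 ± 0.299 CPM in Media (SD, n = 3).

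For each of the 7 called AP-1 genes, the genes with the most similar levels over the 9 libraries were sought among 13466 genes with a mean of at least 1 CPM. Pearson's r of log2 CPM was 0.9989 between FOS and PCDH10, 0.9994 between FOSL2 and TNFAIP3 and 0.9986 between JUN and PXK. It was 0.9975 between JUNB and TSC22D4, 0.9962 between ATF3 and ZMAT5, 0.9928 between BATF3 and AK4P1, and 0.9976 between MAFF and VPS26B. None of the 3 nearest genes of any of the 7 was another AP-1 gene, which says little, as few of the genes searched are AP-1 genes. Between these AP-1 genes themselves, r ran from -0.99 (FOS and FOSL2) to 0.99 (FOSL2 and JUN). It was smallest in size at -0.85 (BATF3 and MAFF). The libraries share 3 group means, so these values describe the group differences for the most part.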

How the data were processed

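RNA of TC32 cells was sequenced in 9 libraries, 3 per group. According to the study's methods the authors aligned reads with STAR and estimated gene counts with RSEM. The submitters' processing notes name FastQC, cutadapt 2.10, DESeq2 1.32.0 and build hg38. The annotation release and strand setting are not given in the sources used here. The labels name a small RNA library kit beside polyA RNA. What was deposited are expected counts for each gene, before any scaling to library size. No other values were used.

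After rounding, 16093 genes passed filterByExpr, and with TMM scaling they were tested in edgeR 4.0.16 (R 4.3.3) by its quasi-likelihood test over all 9 libraries, with Benjamini-Hochberg adjustment over all genes tested. "Rose" and "fell" mean an adjusted P under 0.01, and "called" adds a log2 fold change beyond 1. The test was checked on simulated data. P values measure the spread between these libraries. Coordinates and lengths are from GENCODE release 44 (GRCh38), which matched 99.5% of gene IDs. From each related list, up to 5 called genes with the largest change and no overlap between groups were named, and for likeness the 3 nearest genes. 1 gene that this rule names is counted with its list and not reported here by name. The members and lists were chosen with earlier results of these data known. The alternatives tried were scaling by RLE or by the upper quartile, DESeq2 1.42.0, testing unfiltered genes or those with 10 or more counts in each library, fitting only the 6 libraries of a comparison, a replicate block, unrounded counts, pooled controls, a test against the cut-off, each library left out, and shares without length scaling.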

Additional observations from a re-analysis of the deposited data

How the results depend on the processing

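FOS, FOSL2, JUN, JUNB, JUND, ATF3 and MAFF kept their direction and their side of the adjusted P threshold in siEF against siNEG under every alternative that tested against no change. Against the cut-off itself, which is a stricter question, JUND (adjusted P = 1) and ATF3 (adjusted P = 0.0196) did not pass in edgeR. With at least 10 counts in every library BATF3 was no longer tested, so 1 AP-1 gene fell and 1 was called lower against siNEG, and 1 was called lower against Media. Of all 13532 genes tested in this way, 1556 were called lower against siNEG and 1624 against Media. From Media to siNEG, 1 gene fell when only the 6 libraries compared were used, and between 0 and 2 fell with each library left out. Testing directly against the cut-off of 1 called 2 AP-1 genes higher in siEF against Media and 1 upstream gene higher in siEF against siNEG. Of all 16093 genes, it called 1821 higher against Media and 1775 higher against siNEG. Of the AP-1 target genes, between 0 and 1 were called lower with each library left out (MMP9, without siNEG replicate 1). From Media to siNEG, FOSB ran from -0.18 to 0.18 with each library left out (0.04 without siNEG replicate 1 and 0.18 without Media replicate 3), and JUND from -0.03 (without siNEG replicate 3 or Media replicate 3) to 0.07. SRF in siEF against siNEG was 0.02 with upper quartile scaling. UPP1 was -0.01 without a filter and ran from -0.03 to 0.06, and HBEGF from -0.03 to 0.22, with each library left out. JDP2 was 0.64 (adjusted P = 0.0187 in edgeR) with pooled controls. The causes were not tested. With the replicate block 6 AP-1 genes rose and 2 fell in siEF against siNEG, as without it, and 2702 genes in all were called higher and 1859 lower against 2757 and 1882. Deviations of same-numbered libraries correlated between -0.088 and 0.048, and not every library correlated best with its own number, so the numbers do not pair the samples.

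Without length scaling the shares in siEF, siNEG and Media were 14.4%, 52.0% and 50.9% for FOS, 1.00%, 1.17% and 1.11% for FOSB, 3.71%, 7.32% and 8.84% for FOSL1 and 80.9%, 39.5% and 39.1% for FOSL2. In the JUN family they were 51.5%, 47.9% and 50.1% for JUN, 13.7%, 12.7% and 14.2% for JUNB and 34.8%, 39.4% and 35.8% for JUND. Low counts limit BATF3 and FOSB.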
